A study of Mus musculus with 16 samples.

Results

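Interferon-stimulated genes are the genes whose transcription cells raise after exposure to interferons. Of a list of 35 such mouse genes, 33 were measured here by a probe set annotated to exactly 1 of them. The array carried 58 such probe sets, and for each gene the one with the highest mean over all 16 arrays was kept, a choice blind to group. The 33 genes stand among 18193 genes measured in this way. A gene entered the tests when its log2 value was at least 5 on at least 2 arrays, which 32 of the 33 members and 7823 genes in all did. A gene low in most groups could pass only through the groups where it was high, and its calls there are weaker support. Isg15 and Ifi44 had no probe set naming them alone and were not analysed here. Mx1 stayed below the filter.

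RNA from stellate cells of 8- to 10-week-old male Balb/c mice was hybridised to 1 oligonucleotide array per sample, after density centrifugation and magnetic removal of macrophages. Culture cells (3 arrays) had spent 5 days on plastic in 10% fetal bovine serum. Coculture cells (2 arrays) were kept alike with Kupffer cells, the liver's resident macrophages, which shared the medium across a transwell insert without touching them. The design text counts 3 such samples, of which 1 was not analysed here. Bile duct ligation cells (3 arrays) came from mice whose common bile duct had been tied for 15 days. CCl4 cells (3 arrays) came from mice given 4 intraperitoneal injections of carbon tetrachloride, a liver toxin, at 0.5 µl per g. Quiescent cells (5 arrays) came from normal mice. The cells of the last 3 groups were plated for 24 h before lysis. No sham-operated or vehicle-injected mice were analysed here. The labels do not tie arrays to separate animals, so p-values cover only the spread among these arrays, and that may be technical.

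Stellate cells store vitamin A beside the liver sinusoids and turn into matrix-producing myofibroblasts after injury. Type I interferons bind a receptor of the Ifnar1 and Ifnar2 chains, and the kinases Jak1 and Tyk2 then act on transcription factors that include Stat2. Stat2 and Irf9 belong to the factor ISGF3, which binds the interferon-stimulated response element (ISRE). Interferon gamma binds a receptor of Ifngr1 and Ifngr2, and its target genes often carry the gamma-activated sequence (GAS). The induced genes include sensors of foreign RNA, enzymes and GTPases that block viruses and other microbes, and factors that sustain or end the response.

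Promoter windows (250 bases before to 50 after an annotated start, RefSeq, build GRCm38.p6) were listed for 28 of the 35 genes. The ISRE core GAAANNGAAA, searched on both strands, occurred in a window of 15 of them (53.6%), against 3.99% of the 27025 genes with a window. The palindromic GAS core TTCNNNGAA occurred in 9 (32.1%), against 9.55% of those genes. Both cores were found in 5 members and neither in 9, and the cores overlapped in 1 window. A match is a description of the letters and not a binding site. Of the 26 tested members with a window, the 14 with an ISRE core had a median log2 difference of 1.66 in coculture against quiescent cells and 7 calls, and the 12 without one had a median of 1.05 and 4 calls, where 17.8% of all tested genes were called higher. With 1 outlying culture array left out (culture replicate 3), the calls were 11 and 6, where 18.4% of all tested genes were called higher. For the GAS core the order was opposite, with 1.18 for the 9 members holding it and 1.64 for the 17 without. After CCl4 the medians were 0.08 with an ISRE core and 0.27 without. Windows are shown for the 3 members holding a core whose levels differed most over the 5 groups by F test, and for the first such member holding none, so that both kinds can be compared. Capitals mark the core found.
Gbp2, chr3:142620413-142620712, plus strand, ISRE core starting 59 bases before the start: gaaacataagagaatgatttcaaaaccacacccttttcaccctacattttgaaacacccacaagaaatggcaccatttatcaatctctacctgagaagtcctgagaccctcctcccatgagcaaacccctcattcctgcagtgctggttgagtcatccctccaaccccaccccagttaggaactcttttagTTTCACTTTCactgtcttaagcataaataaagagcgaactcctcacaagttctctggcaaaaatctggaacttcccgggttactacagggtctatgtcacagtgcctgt
Ifih1, chr2:62646206-62646505, minus strand, ISRE core starting at base 33 of the transcript: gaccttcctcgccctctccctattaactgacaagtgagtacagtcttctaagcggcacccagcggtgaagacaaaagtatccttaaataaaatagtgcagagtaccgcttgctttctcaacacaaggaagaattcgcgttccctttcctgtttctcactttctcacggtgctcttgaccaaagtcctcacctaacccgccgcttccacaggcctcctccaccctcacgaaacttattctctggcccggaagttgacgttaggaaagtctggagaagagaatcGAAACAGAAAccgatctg
Ifit2, chr19:34550444-34550743, plus strand, GAS core starting 241 bases before the start: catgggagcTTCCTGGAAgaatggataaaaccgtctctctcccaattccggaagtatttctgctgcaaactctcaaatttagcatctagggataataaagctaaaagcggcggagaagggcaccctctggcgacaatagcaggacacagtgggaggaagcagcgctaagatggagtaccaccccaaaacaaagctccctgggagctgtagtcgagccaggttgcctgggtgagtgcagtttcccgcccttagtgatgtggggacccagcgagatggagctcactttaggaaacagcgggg
Ifi47, chr11:49076337-49076636, plus strand, neither core: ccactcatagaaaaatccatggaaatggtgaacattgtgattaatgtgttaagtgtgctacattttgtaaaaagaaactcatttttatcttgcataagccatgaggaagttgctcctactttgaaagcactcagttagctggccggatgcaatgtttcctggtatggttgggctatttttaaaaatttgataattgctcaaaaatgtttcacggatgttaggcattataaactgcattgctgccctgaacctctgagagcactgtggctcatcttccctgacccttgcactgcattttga
Ifit2 has 2 annotated starts, and the window shown is the one with the GAS core.

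Values are GCRMA log2 expression values as the authors deposited them, so a difference of 1 is a 2-fold difference. Unexpressed probe sets lie near log2 2 (array medians of all probe sets, 2.00 to 2.06), and a probe set's level is not comparable with another's. The cells carried the stellate markers Des, Pdgfrb, Reln, Hand2, Lhx2, Dcn and Col1a1 at a mean of at least 5 in every group. Of 8 stellate markers tested, 3 were called higher and 0 lower in culture, 1 higher and 3 lower in coculture, 1 and 1 after bile duct ligation, and 1 and 4 after CCl4, all against quiescent cells. Reln, a secreted matrix protein, averaged 8.78 in coculture, against 12.03 in quiescent cells. Lrat, the retinol-esterifying enzyme, averaged 9.75 in culture, 7.98 in coculture, 4.78 after bile duct ligation and 3.81 after CCl4, against 5.61 in quiescent cells, and of these only culture was called. Gfap stayed between 1.30 and 2.11 on all arrays. Of 20 macrophage markers, 18 had no group mean of 5, the macrophage surface gene Adgre1 (1.23 to 2.56 over the 16 arrays) among them. The other 2 were Cd68 and Lyz2. Markers of T, NK and B cells, neutrophils and endothelium were below 5 in all group means. Of 6 cholangiocyte markers, Krt19 alone reached a group mean of 5, with 5.56 and 5.64 in coculture, against 1.11 to 1.93 in quiescent cells. It rose there by 4.02 ± 0.38 (adjusted p = 2.38e-06), and its part in the members' coculture differences was not tested. No array outside coculture reached log2 5 for Krt19. It passed the filter through coculture alone, so its p-values for coculture are no independent support.

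The tested members had a median level of 9.33, 9.83 and 6.88 in the 3 culture arrays and 9.45 and 8.79 in the 2 coculture arrays. It was 6.24, 6.16 and 7.33 after bile duct ligation, 7.42, 8.16 and 7.36 after CCl4, and 7.37, 6.95, 7.99, 7.26 and 8.46 in quiescent cells. The median of all tested genes lay between 7.21 and 7.34 on every array. Culture replicate 3 thus stood apart from the other culture arrays. It was the lowest culture array for 32 of 32 members, against 40.9% of all tested genes. For the members it lay a median of 2.03 log2 units below the mean of culture replicates 1 and 2. The gap ran from 0.74 for Trim25 to 6.27 for Rsad2, and 29 members were at least 2-fold lower there, against 3.80% of all tested genes. Member counts that depend on that array, and the main calls of named members, are therefore given with and without it. Culture replicate 3 lay below the mean of culture replicates 1 and 2 for 50.3% of all tested genes. It was thus singled out by the members' own values. Calls and p-values without it describe how the results depend on 1 array and are no independent support.

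**Figure D1:**
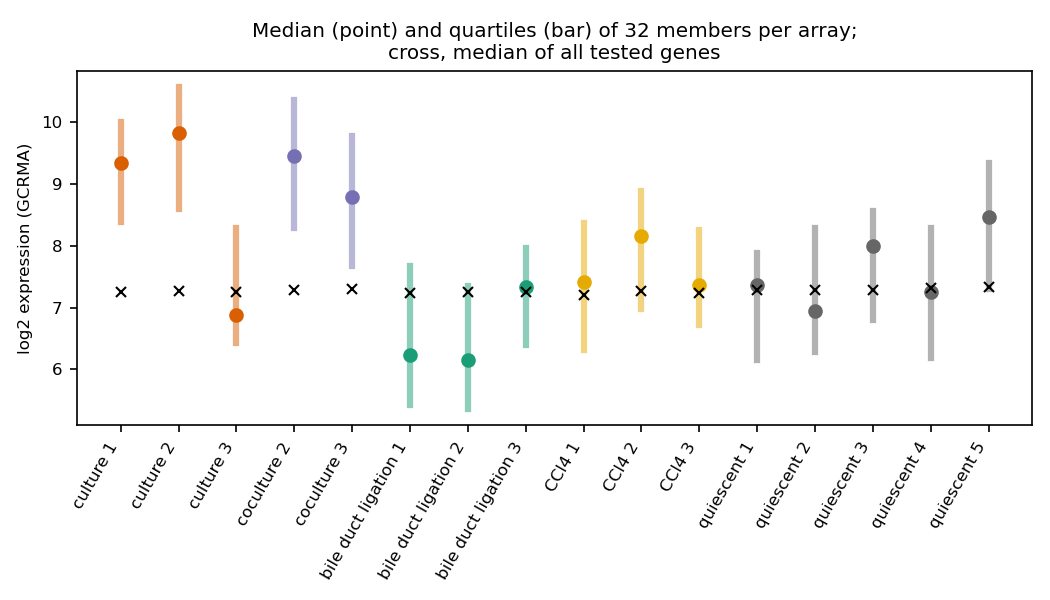
Median (point) and quartiles (bar) of the log2 levels of the 32 tested members on each array, by group, with the median of all 7823 tested genes (cross). Culture replicates 1 and 2 (9.33 and 9.83) and both coculture arrays lie above all others, and culture replicate 3 (6.88) lies among the injured and quiescent arrays.

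Single arrays ranked alike across members in the other groups too. Coculture replicate 2 was the higher of the pair for 29 members, bile duct ligation replicate 3 the highest of its group for 30, CCl4 replicate 2 for 31 and quiescent replicate 5 for 27. For all tested genes the shares were 51.4%, 33.1%, 29.9% and 20.5%. The median SD of the members was 1.18 in culture, 0.43 in coculture, 0.49 after bile duct ligation, 0.35 after CCl4 and 0.62 in quiescent cells, against 0.20 to 0.29 for all tested genes. Deviations from the group means had a median Pearson correlation of 0.84 over the 496 pairs of members (16 arrays), and of 0.69 without culture replicate 3. Over pairs of all tested genes the median was 0.00 and 0.01. The points share arrays and normalisation, so these are descriptions.

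**Figure D2:**
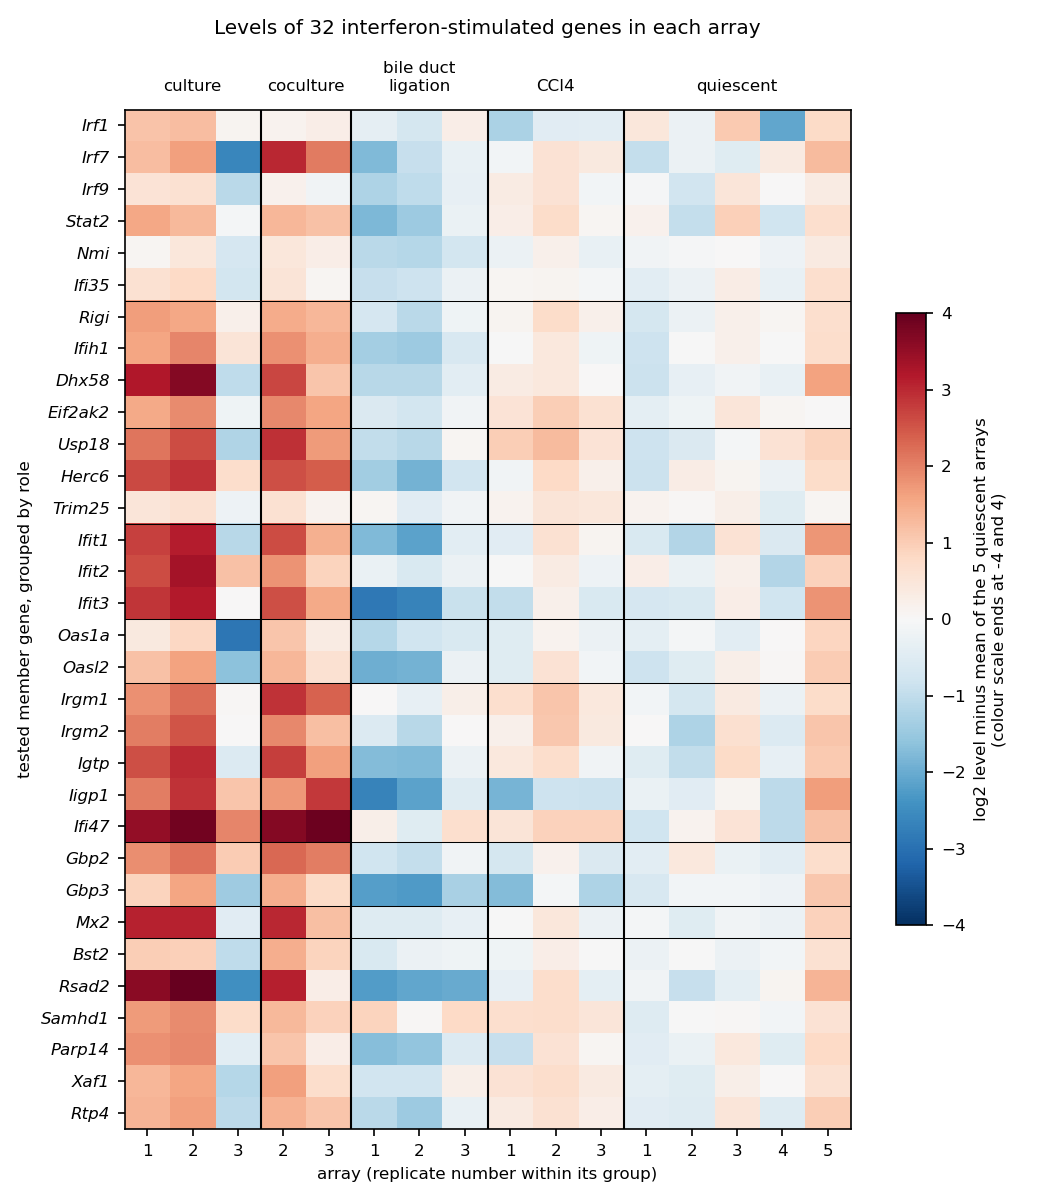
Log2 level of each tested member (rows, ordered by role and divided by lines) on each of the 16 arrays (columns), minus the mean of the 5 quiescent arrays. Red is higher and blue lower. Culture replicates 1 and 2 and the coculture arrays are mostly red, and bile duct ligation replicates 1 and 2 are mostly blue.

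In an F test over the 5 groups, 22 of 32 members differed (limma, Benjamini-Hochberg adjusted p under 0.05), against 63.0% of all tested genes. Without culture replicate 3 it was 31 of 32, against 58.1%. The highest group mean was that of culture for 6 members, of coculture for 24 and of CCl4 for 2, against 25.4%, 21.2% and 15.0% of all tested genes. That order rests on culture replicate 3: without it the highest mean was that of culture for 24 members and of coculture for 8. The lowest mean was that of bile duct ligation for 29 of 32 members, against 19.4% of all tested genes, of quiescent cells for 2 and of CCl4 for 1.

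Against quiescent cells, 13 members were called higher and 0 lower in culture, where 18.5% of tested genes were called higher and 23.5% lower. In coculture 14 were called higher and 0 lower, against 17.8% and 20.9%. After bile duct ligation 4 were called lower and 0 higher, against 8.83% and 8.03%, and after CCl4 0 were called, against 22.0% in either direction. The members' median log2 differences were 1.16 in culture, 1.48 in coculture, -0.86 after bile duct ligation and 0.17 after CCl4, while those of all tested genes lay between -0.05 and -0.04. These comparisons share the 5 quiescent arrays.

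**Figure D3:**
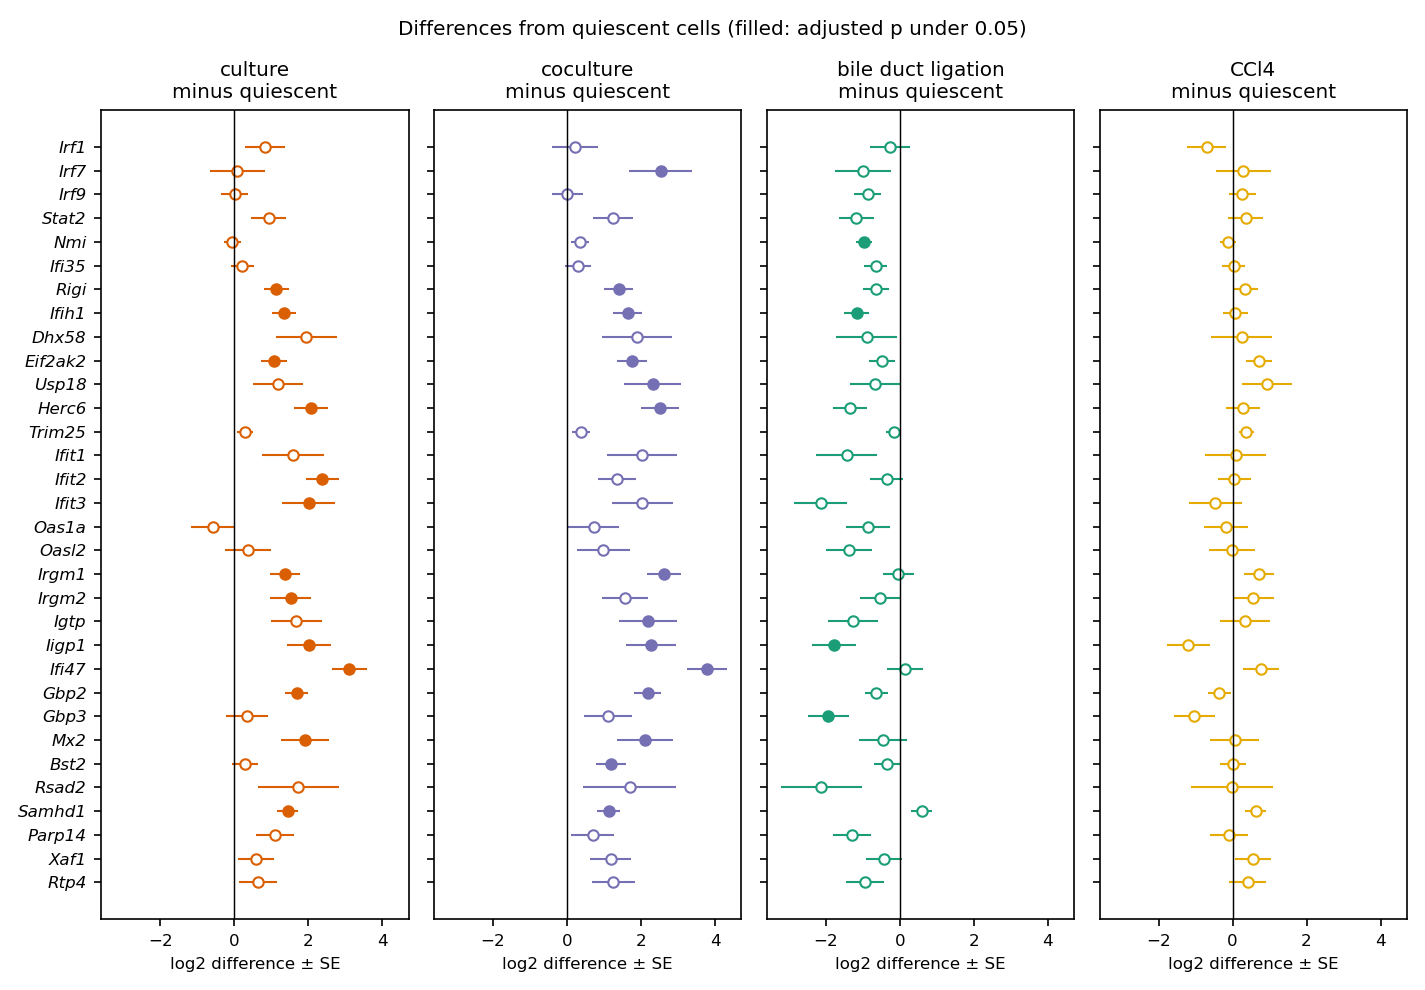
Log2 difference from quiescent cells with its standard error for each tested member (rows) in culture, coculture, bile duct ligation and CCl4 cells (panels). Filled points have an adjusted p under 0.05, and there are 13, 14, 4 and 0 of them in the panels from left to right.

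Without culture replicate 3, 26 members were called higher in culture than in quiescent cells, the 13 called with all arrays among them, and the median difference was 1.78, while 14.9% of all tested genes were called higher in that fit. The array also widens the shared estimate of the spread. Without it 22 members were called higher in coculture, against 18.4% of tested genes, and 11 lower after bile duct ligation, against 9.51%, at the same group means. After CCl4 1 member, Eif2ak2, was then called higher, and 22.8% of tested genes were called in either direction. Without culture replicate 1 or 2 the culture count was 7 or 6. Over all fits with 1 array left out, 2580 to 3307 of the 7823 tested genes were called in culture, in either direction.

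**Figure D4:**
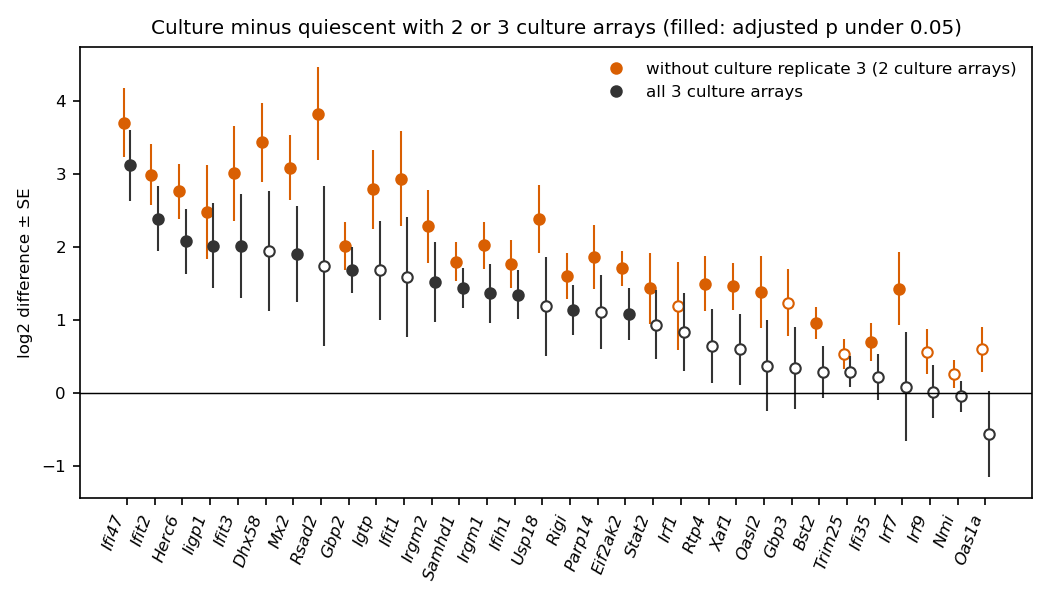
Log2 difference between culture and quiescent cells with its standard error for each tested member, without culture replicate 3 (orange) and with all 3 culture arrays (dark). Filled points have an adjusted p under 0.05, 26 without the array and 13 with it, and all 32 orange points lie above 0.

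Among the signal and transcription factors, Irf7 rose in coculture and Nmi fell after bile duct ligation, while Irf1, Irf9, Stat2 and Ifi35 passed no test against quiescent cells. With culture replicate 3 left out, Ifi35 was called in culture as well (0.70 ± 0.26, adjusted p = 0.0491), and Irf9 was called lower after bile duct ligation (adjusted p = 0.0393). Irf7, the factor that amplifies type I interferon transcription, had 7.89, 8.30 and 4.07 in culture and 9.68 and 8.74 in coculture. It had 4.89, 5.76 and 6.38 after bile duct ligation and 6.57, 7.24 and 7.07 after CCl4, against 5.73, 6.45, 6.19, 7.02 and 7.95 in quiescent cells. The coculture arrays lay above every other array, and culture replicate 3 below every other. Its difference from quiescent cells was 2.54 ± 0.85 (SE) in coculture (adjusted p = 0.0286) and 0.09 ± 0.74 in culture (adjusted p = 0.938), or 1.43 ± 0.50 in culture without replicate 3 (adjusted p = 0.0391).

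Stat2, the type I signal transducer, had 7.80, 7.54 and 6.17 in culture and 7.58 and 7.40 in coculture. It had 4.44, 4.78 and 5.98 after bile duct ligation and 6.51, 6.98 and 6.31 after CCl4, against 6.40, 5.29, 7.18, 5.43 and 6.91 in quiescent cells. Coculture lay above all quiescent arrays, and the other groups overlapped with them. Its differences were 0.93 ± 0.47 in culture (adjusted p = 0.122), 1.25 ± 0.54 in coculture (0.0781) and -1.17 ± 0.47 after bile duct ligation (0.104). Without culture replicate 3 the culture difference was 1.43 ± 0.49 (adjusted p = 0.0345).

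Irf9, the DNA-binding partner of Stat2, had 8.06, 8.12 and 6.45 in culture and 7.69 and 7.38 in coculture. It had 6.27, 6.50 and 7.20 after bile duct ligation and 7.84, 8.10 and 7.42 after CCl4, against 7.48, 6.74, 8.01, 7.53 and 7.86 in quiescent cells. Every group overlapped with the quiescent arrays, and the largest difference was -0.87 ± 0.36 after bile duct ligation (adjusted p = 0.12). Irf1, an early interferon gamma target, had 7.88, 7.99 and 6.87 in culture and 6.90 and 7.03 in coculture. It had 6.38, 6.05 and 7.02 after bile duct ligation and 5.49, 6.30 and 6.34 after CCl4, against 7.21, 6.52, 7.81, 4.67 and 7.53 in quiescent cells. Quiescent replicate 4 was the lowest array of all. No difference from quiescent cells passed the test, from -0.70 ± 0.54 after CCl4 (adjusted p = 0.382) to 0.83 ± 0.54 in culture (0.229). Without quiescent replicate 4 the CCl4 difference was -1.22 ± 0.34 and called (adjusted p = 0.0187). Nmi, a binding partner of STAT proteins, averaged 7.55 ± 0.23 after bile duct ligation (SD, n = 3), against 8.53 ± 0.22 in quiescent cells (n = 5). The arrays did not overlap, and the difference was -0.98 ± 0.22 (adjusted p = 0.00586).

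Of the 4 RNA sensors, Rigi, Ifih1 and Eif2ak2 rose in culture and in coculture, and Ifih1 fell after bile duct ligation. Ifih1 encodes MDA5, a sensor of long double-stranded RNA. It had 10.06, 10.44 and 8.98 in culture and 10.32 and 9.92 in coculture. It had 7.11, 7.04 and 7.83 after bile duct ligation and 8.47, 8.89 and 8.32 after CCl4, against 7.65, 8.45, 8.69, 8.45 and 9.18 in quiescent cells. Coculture lay above quiescent cells without overlap, and culture replicate 3 fell below quiescent replicate 5. The differences were 1.34 ± 0.33 in culture (adjusted p = 0.00493), 1.64 ± 0.38 in coculture (0.00378) and -1.16 ± 0.33 after bile duct ligation (0.0257). Without culture replicate 3 the culture difference was 1.77 for Ifih1, 1.71 for Eif2ak2 and 1.60 for Rigi, all called.

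Eif2ak2, the kinase PKR that stops translation on sensing double-stranded RNA, had 7.66, 8.04 and 5.97 in culture and 8.07 and 7.71 in coculture. It had 5.56, 5.40 and 6.0 after bile duct ligation and 6.70, 7.13 and 6.75 after CCl4, against 5.75, 5.96, 6.62, 6.22 and 6.17 in quiescent cells. All CCl4 values lay above the quiescent ones, yet that difference of 0.71 ± 0.35 was not called (adjusted p = 0.165). It was called without culture replicate 3, at the same size (adjusted p = 0.0258). The difference was 1.08 ± 0.35 in culture (adjusted p = 0.0229) and 1.75 ± 0.40 in coculture (0.00352). Neither of its other probe sets was called in culture, and 1 of them was not called in coculture. That one was called lower after bile duct ligation (-1.41 ± 0.44, adjusted p = 0.0397), where the probe set used gave -0.49 ± 0.35 (0.38).

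Rigi, a sensor of 5′-triphosphate RNA, had 7.87, 7.75 and 6.42 in culture and 7.70 and 7.53 in coculture. It had 5.55, 5.13 and 6.04 after bile duct ligation and 6.31, 6.95 and 6.42 after CCl4, against 5.50, 5.99, 6.41, 6.29 and 6.87 in quiescent cells. Coculture alone lay wholly above the quiescent arrays. The difference was 1.13 ± 0.34 in culture (adjusted p = 0.0149) and 1.40 ± 0.39 in coculture (0.0109), and its other probe set was called in neither. Dhx58, which encodes the regulator LGP2, was at 6.72 and 7.17 in culture replicates 1 and 2 and 2.49 in replicate 3, and averaged 3.51 ± 0.94 in quiescent cells (n = 5). Its culture difference was not called with all arrays (1.95 ± 0.82, adjusted p = 0.0683) and was 3.43 ± 0.54 without replicate 3 (0.000338). In coculture it was 1.89 ± 0.94 with all arrays (adjusted p = 0.124), and called without culture replicate 3 (0.0133). Outside culture and coculture, Dhx58 reached log2 5 only in quiescent replicate 5. It thus passed the filter through those 2 groups, and these p-values are no independent support.

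**Figure D5:**
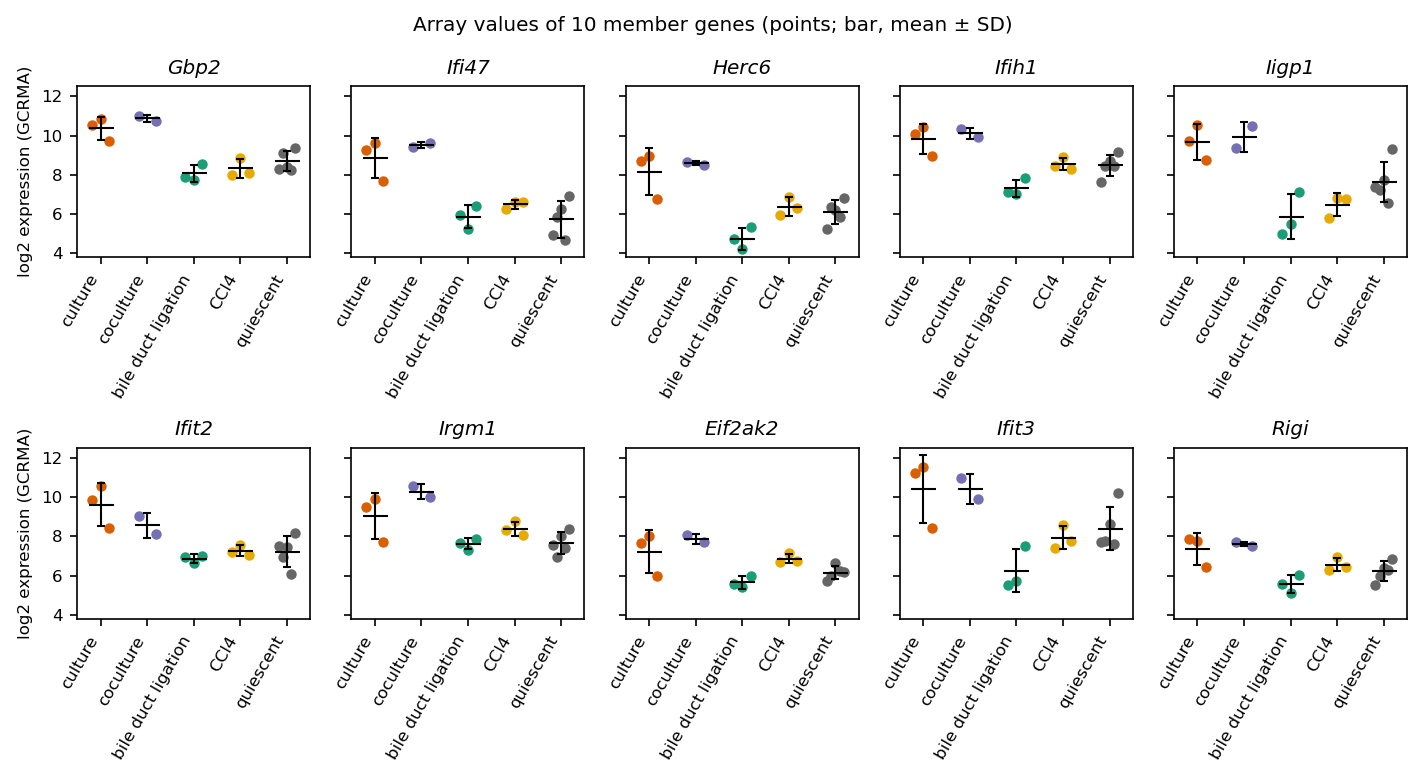
Log2 levels of the 10 members with the smallest F test p (panels) on each array (points) in culture, coculture, bile duct ligation, CCl4 and quiescent cells, with group mean and SD (bars). In each panel the coculture points lie above the CCl4 and bile duct ligation points, and 1 culture point lies below the other 2.

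In the ISG15 system, which attaches the ubiquitin-like protein ISG15 to other proteins and removes it, Herc6 rose in culture and coculture and Usp18 in coculture. Herc6, the main mouse ISG15 ligase, had 8.73, 8.98 and 6.79 in culture and 8.67 and 8.52 in coculture. It had 4.71, 4.21 and 5.32 after bile duct ligation and 5.94, 6.89 and 6.29 after CCl4, against 5.22, 6.38, 6.19, 5.85 and 6.83 in quiescent cells. Culture replicate 3 lay just below the highest quiescent array. The difference was 2.07 ± 0.45 in culture (adjusted p = 0.00188), 2.50 ± 0.51 in coculture (0.00158) and -1.34 ± 0.45 after bile duct ligation (0.0522, not called). All 3 other Herc6 probe sets were called in culture and in coculture. Usp18, which removes ISG15 and dampens the type I receptor, averaged 10.36 ± 0.87 in coculture (n = 2), against 8.05 ± 0.74 in quiescent cells (n = 5), a difference of 2.31 ± 0.77 (adjusted p = 0.0275). In culture its difference was 1.18 ± 0.67 (adjusted p = 0.171), and 2.38 ± 0.46 without replicate 3 (0.00138). Without that array Herc6 was called lower after bile duct ligation (adjusted p = 0.0111). Trim25, a ubiquitin ligase that activates RIG-I, was called against quiescent cells in no group, with means from 8.29 to 8.82.

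The 3 Ifit genes encode related antiviral proteins, of which that of Ifit1 binds viral RNA lacking the host's cap marks. Ifit2 and Ifit3 rose in culture, and none of the 3 was called in coculture, where the differences lay between 1.34 and 2.04. Ifit2 had 9.85, 10.57 and 8.41 in culture and 9.02 and 8.11 in coculture. It had 6.97, 6.63 and 7.01 after bile duct ligation and 7.21, 7.56 and 7.04 after CCl4, against 7.51, 6.95, 7.44, 6.07 and 8.16 in quiescent cells. Every culture array lay above every quiescent one, and coculture replicate 3 did not. The difference was 2.39 ± 0.45 in culture (adjusted p = 0.000668), a 5.23-fold increase, and 1.34 ± 0.51 in coculture (0.05).

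Ifit3 had 11.24, 11.55 and 8.41 in culture and 10.96 and 9.89 in coculture. It had 5.52, 5.72 and 7.51 after bile duct ligation and 7.42, 8.58 and 7.78 after CCl4, against 7.73, 7.78, 8.64, 7.59 and 10.20 in quiescent cells. The bile duct ligation arrays lay below all quiescent ones. That difference of -2.14 ± 0.71 was not called (adjusted p = 0.0521), and the culture difference of 2.01 ± 0.71 was (0.0336). Probes of Ifit3 can also bind its near copy Ifit3b. Ifit1 was at 10.60 and 11.03 in culture replicates 1 and 2 and at 6.78 in replicate 3, and was called in culture only without that array (2.93 ± 0.65, adjusted p = 0.00336). In that fit all 3 were also called in coculture, with adjusted p from 0.0201 to 0.0239, and Ifit3 was called lower after bile duct ligation (0.0173).

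The 2 members of the oligoadenylate synthetase family, whose enzymes activate RNA-degrading RNase L, were called against quiescent cells in no group with all arrays. When culture replicate 3 was left out, Oasl2 was called higher in culture (1.38 ± 0.49, adjusted p = 0.0431), and both were called lower after bile duct ligation (Oas1a 0.0405, Oasl2 0.0394). Oas1a averaged 8.56 ± 2.02 in culture (n = 3) and 9.84 ± 0.54 in coculture (n = 2), against 9.12 ± 0.51 in quiescent cells (n = 5). Its culture difference of -0.56 ± 0.59 (adjusted p = 0.467) was the lowest of all members with all arrays and turned to 0.60 ± 0.31 without replicate 3 (0.148), and its probes can bind other Oas1 copies. Oasl2 averaged 6.80 ± 0.96 after bile duct ligation (n = 3), against 8.17 ± 0.70 in quiescent cells, a difference of -1.37 ± 0.62 (adjusted p = 0.15).

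The immunity-related GTPases, which act at the membranes around intracellular microbes and are known mainly as interferon gamma targets, include 5 tested members. Of these, 4 rose in culture (Ifi47, Iigp1, Irgm1 and Irgm2) and 4 in coculture (Ifi47, Irgm1, Iigp1 and Igtp). Ifi47 had 9.26, 9.60 and 7.68 in culture and 9.40 and 9.64 in coculture. It had 5.97, 5.24 and 6.39 after bile duct ligation and 6.25, 6.64 and 6.64 after CCl4, against 4.92, 5.87, 6.28, 4.69 and 6.91 in quiescent cells. All culture and coculture arrays lay above the rest. The difference was 3.12 ± 0.48 in culture (adjusted p = 0.000149) and 3.79 ± 0.55 in coculture (0.000118), a 13.8-fold increase, with the smallest adjusted p of any member in both. All 5 were called in culture without culture replicate 3, Igtp included (2.79 ± 0.54, adjusted p = 0.00133, against 1.68 ± 0.68 and 0.0594 with it), and Irgm2 was called in coculture as well (0.0228).

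Irgm1, a regulator of the other GTPases, had 9.48, 9.89 and 7.71 in culture and 10.55 and 10.02 in coculture. It had 7.66, 7.33 and 7.89 after bile duct ligation and 8.32, 8.78 and 8.07 after CCl4, against 7.54, 6.95, 8.01, 7.41 and 8.40 in quiescent cells. Both coculture arrays lay above all others. The difference was 2.62 ± 0.47 in coculture (adjusted p = 0.000542) and 1.36 ± 0.41 in culture (0.014). Iigp1, an effector GTPase, had 9.71, 10.55 and 8.75 in culture and 9.38 and 10.48 in coculture. It had 4.98, 5.50 and 7.14 after bile duct ligation and 5.79, 6.82 and 6.79 after CCl4, against 7.39, 7.21, 7.76, 6.59 and 9.31 in quiescent cells. It was the member whose coculture replicate 3 exceeded replicate 2 by most, and bile duct ligation was lower than quiescent with overlap. The differences were 2.02 ± 0.59 in culture (adjusted p = 0.0123), 2.28 ± 0.67 in coculture (0.015), -1.78 ± 0.59 after bile duct ligation (0.049) and -1.19 ± 0.59 after CCl4 (0.165). In its other probe set the bile duct ligation difference was -1.50 ± 0.59 (adjusted p = 0.0933).

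The guanylate-binding proteins are larger interferon-induced GTPases. Gbp2 had 10.56, 10.86 and 9.73 in culture and 11.00 and 10.75 in coculture. It had 7.90, 7.75 and 8.56 after bile duct ligation and 8.01, 8.87 and 8.12 after CCl4, against 8.29, 9.11, 8.42, 8.27 and 9.39 in quiescent cells. Culture and coculture did not overlap with any other group, culture replicate 3 included. The difference was 1.69 ± 0.31 in culture (adjusted p = 0.000599) and 2.18 ± 0.36 in coculture (0.000293), and Gbp2 had the smallest p of all members over the 5 groups. This probe set is marked as able to bind related transcripts, and its other probe set gave 1.48 ± 0.34 (adjusted p = 0.00277) and 2.06 ± 0.39 (0.000798). Gbp3 averaged 6.39 ± 0.53 after bile duct ligation (n = 3), against 8.32 ± 0.64 in quiescent cells (n = 5), and fell by 1.93 ± 0.56 without overlap (adjusted p = 0.0276).

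Of the Mx GTPases, which trap viral nucleocapsids, Mx1 lay between 1.32 and 3.47 on all 16 arrays, with its highest values in culture replicates 1 and 2. Many inbred mouse strains carry a defective Mx1. Mx2 had 6.23, 6.23 and 2.69 in culture and 6.15 and 4.35 in coculture, against 3.05, 2.66, 3.01, 2.92 and 4.06 in quiescent cells. It rose by 1.91 ± 0.66 in culture (adjusted p = 0.029) and by 2.11 ± 0.75 in coculture (0.037), from a level near that of unexpressed probe sets. Mx2 reached the filter's log2 5 only on culture replicates 1 and 2 and coculture replicate 2. It thus entered the tests through the groups then called higher, and these p-values are no independent support.

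Of the 6 other tested effectors, Samhd1 rose in both, Bst2 in coculture, and Rsad2, Parp14, Xaf1 and Rtp4 were not called with all arrays. In the fit lacking culture replicate 3 all 6 were called in culture, among them Bst2 (0.95, adjusted p = 0.00417), Parp14 (1.87, 0.00476), Xaf1 (1.46, 0.0035) and Rtp4 (1.49, 0.00723). In that fit Rsad2, Xaf1 and Rtp4 were also called in coculture, and Rsad2 and Parp14 were called lower after bile duct ligation. Samhd1, which depletes the nucleotides that reverse transcription needs, averaged 8.25 ± 0.63 in culture (n = 3) and 7.93 ± 0.27 in coculture (n = 2), against 6.81 ± 0.39 in quiescent cells (n = 5). The difference was 1.44 ± 0.28 in culture (adjusted p = 0.0008) and 1.12 ± 0.32 in coculture (0.0117). Its other probe set was called in culture and gave 0.41 ± 0.35 in coculture (adjusted p = 0.371). Bst2, or tetherin, which holds budding virions, averaged 11.21 ± 0.40 in coculture, against 10.03 ± 0.35 in quiescent cells, and rose by 1.18 ± 0.41 (adjusted p = 0.0323). Rsad2, or viperin, spread most, with 9.31, 9.77 and 3.27 in culture and 8.83 and 5.98 in coculture, against 5.56, 4.80, 5.33, 5.83 and 7.06 in quiescent cells. Its culture difference was 1.74 ± 1.10 (adjusted p = 0.218), and 3.82 ± 0.63 without replicate 3 (0.000441). Of its 2 other probe sets, 1 was called in culture with all arrays (2.49 ± 0.93, adjusted p = 0.0426).

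After bile duct ligation 30 of 32 members had a negative difference from quiescent cells, against 4341 of 7823 tested genes. The members vary together between arrays, so these are not 30 independent signs. Nmi, Ifih1, Gbp3 and Iigp1 were called lower, and 6 members had all 3 arrays below all quiescent ones, against 11.8% of tested genes. Among members with a positive difference Samhd1 came nearest to a call, at 0.59 ± 0.28 (adjusted p = 0.164). Without quiescent replicate 5, the highest quiescent array for most members, Nmi alone was called and the median was -0.56. Leaving out bile duct ligation replicate 1 or 2 also left Nmi alone. Over all fits with 1 array left out, 784 to 1433 of the 7823 tested genes were called in this comparison, in either direction. After CCl4 the member nearest to a call above quiescent cells was Samhd1 (0.62 ± 0.28, adjusted p = 0.124), and the nearest below was Iigp1. RNA of Alb, the hepatocytes' albumin, stood at 9.0, 7.34 and 8.40 after bile duct ligation and 7.94, 9.26 and 10.79 after CCl4, against 1.84 to 3.75 in quiescent cells. The summed linear level of 7 hepatocyte markers was 201 to 576 after bile duct ligation and 385 to 2624 after CCl4, against 19 to 39 in quiescent cells. The part of these transcripts in the members' differences was not tested. In such samples fewer expressing cells and less RNA per cell cannot be told apart.

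Between bile duct ligation and CCl4, 31 of 32 members were lower after bile duct ligation, against 3820 of 7823 tested genes. The members' median difference was -1.04, against 0.01 for all tested genes. The arrays did not overlap for 21 members, all lower, against 11.8% of tested genes. Yet 0 members were called by limma in either direction, against 0.166% of tested genes (13). Nmi was nearest, at 7.55 ± 0.23 after bile duct ligation and 8.41 ± 0.28 after CCl4 (SD, n = 3 each), a difference of -0.86 ± 0.24 (SE, adjusted p = 0.166). Irf1, with 0.44 ± 0.60, was the only member with a positive difference (adjusted p = 0.794).

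Adding Kupffer cells to culture shifted the members by a median of 0.36, against 0.01 for all tested genes, and 0 were called by limma, where 15.4% of tested genes were. Irf7, at 2.45 ± 0.93 (adjusted p = 0.0902), and Irgm1, at 1.26 ± 0.51 (0.111), were nearest to a call, with no overlap between arrays. Both rest on single culture arrays: without replicate 3 they were 1.11 ± 0.59 (adjusted p = 0.265) and 0.60 ± 0.38 (0.363), and without replicate 2 they were called, at 3.23 ± 0.93 (0.0362) and 1.69 ± 0.50 (0.0423). The lowest was Ifit2, at -1.05 ± 0.56 (adjusted p = 0.232). Leaving out culture replicate 3 turned the median to -0.25, with 24 members lower in coculture, and Ifit2 was called lower (-1.65 ± 0.50, adjusted p = 0.0488). The members' direction between coculture and culture thus depends on whether that array is kept. Leaving it out keeps coculture replicate 3, the lower of its pair for 29 members. The culture and coculture arrays numbered 3 deviated together (correlation 0.54), which rests on the 1 difference between the 2 coculture arrays. Whether the numbers pair these arrays is not known, so neither fit settles the direction. Of the macrophage markers, Cd68 stood at 7.81 and 7.82 in coculture, against 3.77, 4.88 and 2.57 in culture. Culture was the group that stood apart for Cd68, which averaged 6.34 after bile duct ligation, 7.06 after CCl4 and 7.02 in quiescent cells, and the coculture difference from quiescent cells was not called (0.80 ± 0.58, adjusted p = 0.294). For Lyz2, the other macrophage marker tested, quiescent cells stood apart: it averaged 4.94 in culture, 5.49 in coculture, 5.91 after bile duct ligation and 5.46 after CCl4, against 2.02 in quiescent cells. Its rise was called in all 4 groups, by 2.93 ± 0.63 in culture (adjusted p = 0.00173) and 3.47 ± 0.72 in coculture (0.00168), and it did not pass the test between coculture and culture (0.54 ± 0.78, adjusted p = 0.699). Krt19, which passed the filter through coculture alone, was higher in coculture than in culture by 3.27 ± 0.42 (adjusted p = 0.000138). The Kupffer cell gene Clec4f was at 1.67 on both coculture arrays, within the level of unexpressed probe sets (1.35 to 2.87 over the 16 arrays). The summed linear level of the 20 macrophage markers was 339 to 355 in coculture, against 103 to 115 in culture. It was 151 to 484 after bile duct ligation, 201 to 402 after CCl4 and 132 to 286 in quiescent cells. The part of these transcripts in the members' levels was not tested.

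Set against the mean of the 2 injury groups, 21 members were higher in culture and 0 lower, against 25.0% and 25.9% of tested genes, and 19 were higher in coculture and 0 lower, against 15.0% and 15.3%. The medians were 1.33 and 1.66. In culture the smallest adjusted p were those of Gbp2 (2.18 ± 0.30, 3.64e-05), Iigp1 (3.50 ± 0.57, 0.000142), Herc6 (2.60 ± 0.43, 0.000179) and Ifit2 (2.54 ± 0.43, 0.000214). Oas1a had the only negative difference, -0.046 ± 0.57 (adjusted p = 0.954), which was 1.11 without culture replicate 3. In coculture they were those of Gbp2 (2.67 ± 0.35, 8.33e-05), Ifi47 (3.33 ± 0.54, 0.000457), Herc6 (3.03 ± 0.50, 0.000527) and Ifih1 (2.18 ± 0.37, 0.000709). All coculture arrays lay above all 6 injury arrays for 25 members, against 20.1% of tested genes. All 4 RNA sensors, 3 Ifit genes, 5 immunity-related GTPases and 2 guanylate-binding proteins were called in culture, and neither Oas1a nor Oasl2 was called in either with all arrays. Without culture replicate 3, 31 members were called in culture and 27 in coculture, against 20.3% and 15.8% of tested genes. Oas1a and Oasl2 were then called in both, with adjusted p of 0.00866 and 0.00347 in culture and 0.00646 and 0.0168 in coculture. Without culture replicate 1 or 2 the count was 9 or 8, and without coculture replicate 2 or 3 the coculture count was 6 or 11. Over all fits with 1 array left out, 3215 to 4160 of the 7823 tested genes were called in culture, in either direction. In coculture it was 1057 to 2613.

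The genes upstream of the members were also read. Of 18 interferon genes listed, 10 were measured and 0 passed the filter. They lay between 0.70 and 4.20 on all arrays, with Ifnb1, interferon beta, between 1.36 and 3.43 and Ifng between 0.70 and 1.38. Of 6 receptor genes 5 were tested. Ifnar2 stood at 9.73 and 9.81 in coculture, against 8.83, 8.88, 8.86, 8.95 and 8.96 in quiescent cells, and rose by 0.87 ± 0.16 there (adjusted p = 0.000827). Ifngr2 rose by 1.30 ± 0.24 in culture (adjusted p = 0.000573) and 1.22 ± 0.27 in coculture (0.00289). Ifnlr1, of the interferon lambda receptor, lay between 1.06 and 1.57 on all arrays. Ifnar1 was called against quiescent cells in no group, and after CCl4 Ifnar2 fell by 0.47 ± 0.14 (adjusted p = 0.0294) and Ifngr1 by 0.69 ± 0.24 (0.0498).

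Of the kinases, STATs and other IRFs, 5 of 9 were tested. Jak1 fell by 0.69 ± 0.16 in culture (adjusted p = 0.00254), by 0.72 ± 0.18 in coculture (0.00524) and by 0.56 ± 0.16 after CCl4 (0.0185). Jak2, a kinase of the interferon gamma receptor, fell by 1.03 ± 0.26 in culture (adjusted p = 0.00514) and by 0.91 ± 0.26 after bile duct ligation (0.0234). Irf3, the factor that starts interferon beta transcription, was called against quiescent cells in no group. Of 16 sensing genes 7 were tested. Tlr3, a receptor for double-stranded RNA, rose by 1.84 ± 0.40 in culture (adjusted p = 0.00196) and by 2.06 ± 0.46 in coculture (0.00276). Zbp1, a sensor of Z-form nucleic acids, was at 7.13, 7.88 and 1.72 in culture and 9.47 and 9.06 in coculture, against 4.38, 5.37, 3.32, 4.52 and 6.61 in quiescent cells. It rose by 4.43 ± 1.21 in coculture (adjusted p = 0.00983). Of 11 negative regulators 7 were tested, and Samd9l, an antiviral restriction factor also known to restrain growth, rose by 1.67 ± 0.35 in culture (adjusted p = 0.00163) and 1.89 ± 0.41 in coculture (0.00219). Socs1 lay between 0.82 and 1.36 on all arrays, and Socs3 was called against quiescent cells in no group.

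Of 66 other interferon-stimulated genes, 42 were tested, and 14 were called higher and 0 lower in culture than in quiescent cells, against 18.5% and 23.5% of all tested genes. In coculture it was 24 higher and 2 lower, against 17.8% and 20.9%. After bile duct ligation it was 3 higher and 10 lower, against 8.03% and 8.83%, and after CCl4 2 higher and 1 lower, against 22.0% in either direction. Their medians were 0.77, 1.30, -0.60 and -0.09. The guanylate-binding Gbp6 and the helicase Ddx60 had calls of the same directions as members, with Gbp6 rising by 2.01 ± 0.53 in culture (adjusted p = 0.0067) and 2.17 ± 0.60 in coculture (0.0107) and falling by 2.50 ± 0.53 after bile duct ligation (0.00393). Ddx60 rose by 2.33 ± 0.48 in culture (adjusted p = 0.00122) and 2.76 ± 0.54 in coculture (0.00119). Slfn2, a Schlafen gene known from immune cells, was at 1.77, 3.27 and 1.25 in culture and 8.17 and 6.97 in coculture, against 1.74, 2.12, 2.27, 2.33 and 2.60 in quiescent cells. It rose by 5.36 ± 0.48 in coculture (adjusted p = 1.8e-06), and the culture arrays overlapped with the quiescent ones. Slfn2 reached log2 5 in no culture or quiescent array, so it passed the filter through groups then called higher. It also rose after bile duct ligation (1.49 ± 0.42, adjusted p = 0.0228) and after CCl4 (3.28 ± 0.42, adjusted p = 6.72e-05). Ifi27 fell by 1.54 ± 0.20 in coculture (adjusted p = 3.57e-05) and was called against quiescent cells in no other group.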

How the data were processed

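The table holds log2 expression values of 45101 probe sets, deposited by the authors and made with GCRMA per the submitters' processing notes; no source used here names its settings or version. Of the probe sets, 34945 were annotated to 1 gene symbol, 932 to several and 9211 to none. GCRMA equalises the arrays' distributions, so a change shared by most genes would not be seen, and the number of arrays limits the precision.

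From these values 1 limma model (limma 3.58.1, R 4.3.3, trended empirical Bayes) with 5 group means was fitted to 16 arrays and 7823 genes, with Benjamini-Hochberg adjustment over all of them and a call at an adjusted p under 0.05. It was tested on simulated data. The in vivo mean is the mean of the bile duct ligation and CCl4 group means. Results name the 4 called members with the smallest adjusted p per comparison, and give every array for the 10 with the smallest F test p and for Irf1, Irf7, Irf9 and Stat2. The members and gene lists were chosen with earlier results of these data known. Alternatives were other filters, probe sets, weights and sample sets.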

Additional observations from a re-analysis of the deposited data

Results flagged for a closer look

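In the quiescent group 1 array stood far from the nearest of the others, relative to the group's range, for 4 of the 33 members. Quiescent replicate 5 was the highest for Dhx58 (5.13), Mx2 (4.06) and Bst2 (10.64), and quiescent replicate 4 the lowest for Trim25 (7.96). Chance flags about 1 in 20 groups. Groups of 2 or 3 arrays cannot be examined in this way.

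Ifih1 and Iigp1 rose in culture and fell after bile duct ligation, both against quiescent cells. Culture exceeded the mean of the 2 injury groups by 1.88 for Ifih1 (limma, adjusted p = 0.000229) and by 3.50 for Iigp1 (adjusted p = 0.000142). Both genes were picked by those calls on the same arrays, so these p-values are no further support. That mean includes CCl4, where Ifih1 and Iigp1 differed from quiescent cells by 0.08 and -1.19. Culture was not tested against bile duct ligation alone.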

How the results depend on the processing

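Of 6496 values of single members over 41 settings, 191 lost a call and 185 gained one. The sign changed in 182 values, of which 179 were uncalled both ways. Of these 182 changes, 77 were in coculture against culture and 53 after CCl4 against quiescent cells. In the other 3 a called value had the opposite sign: Oas1a, culture minus in vivo mean (-0.046 as reported), was 1.01 under array weights, 1.10 without 3 arrays (quiescent 4, culture 3 and CCl4 3) and 1.11 without culture replicate 3, within a range of -0.74 to 1.11 when 1 array was left out. Array weights, whose fit stopped before convergence, gave 26 member calls in culture against quiescent cells, 12 after bile duct ligation against quiescent cells, 1 in coculture against culture, 6 between bile duct ligation and CCl4, and 32 in culture against the in vivo mean. Without those 3 arrays the counts were 23 in culture, 11 after bile duct ligation and 2 after CCl4, each against quiescent cells, and 1 in coculture against culture. With only the groups compared they were 7 after bile duct ligation against quiescent cells and 1 between bile duct ligation and CCl4. The cause was not tested. Calls over all genes moved with the setting too, as given below for bile duct ligation against CCl4. For most of the other counts listed here the calls over all genes are not given. These member counts are therefore no result about the members. Of 26 same-numbered pairs of arrays 7 had a correlation of deviations over 0.1 (range -0.26 to 0.54), so the numbers do not pair the groups in general. The 2 pairs of culture and coculture arrays had 0.31 for replicate 2 and 0.54 for replicate 3. The deviations of the 2 coculture arrays are mirror images of each other, so these are not 2 independent agreements. The replicate block gave 0 member calls in coculture against culture, as without it, but it fits 1 effect per replicate number over all 5 groups. It therefore does not test the pairing of culture with coculture alone. Elsewhere with the replicate block 1 member was called after bile duct ligation and 12 in culture, which is likewise no result about the members.

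Leaving out 1 array at a time, member counts against quiescent cells ranged from 6 to 26 in culture, 6 to 22 in coculture, 1 to 11 after bile duct ligation and 0 to 1 after CCl4. They ranged from 0 to 2 in coculture against culture, 0 to 0 between bile duct ligation and CCl4, 8 to 31 and 6 to 27 in culture and coculture against the in vivo mean, and 16 to 31 over the 5 groups. For all genes the ranges were 2580 to 3307, 1862 to 3130, 784 to 1433 and 878 to 1890 against quiescent cells, 446 to 1400, 4 to 20, 3215 to 4160 and 1057 to 2613 in the next comparisons, and 4381 to 5051 over the 5 groups. All genes called between bile duct ligation and CCl4 were 43 with no filter, 4 with a filter at log2 7, 20 with the mean of probe sets, 173 with array weights, 8 without the 3 arrays and 40 with only the groups compared. With only the groups compared, 601 genes were called in coculture against culture. Other probe sets of the members were tried after seeing the data.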
